A study of Mus musculus with 10 samples.

Results

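Rab proteins are the largest branch of the Ras superfamily of small GTPases, and each marks a particular membrane of the cell. In the GTP-bound form a Rab sits on its membrane through prenyl tails and recruits effectors such as tethers and motors. Exchange factors load it with GTP, GTPase-activating proteins end the signal, and GDI proteins carry the inactive form back through the cytosol. In the testis, Rabs serve the secretory route that builds the acrosome, the release of the acrosome at fertilisation, and the endosomes with which Sertoli cells turn over their junctions and take up residual bodies.

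The Rab family was taken here as every mouse gene whose symbol consists of Rab, a number and at most 2 letters, and whose probe on the array could be tied to it by its transcript accession. Of 59 such genes in the gene table, 57 had a probe and 2, Rab36 and Rab44, had none, against 23462 named genes on the array in all. Another 4 symbols of the same form were left out because they are not GTPases: the interacting proteins Rab3ip and Rab5if and the opposite-strand transcripts Rab10os and Rab26os. A gene was represented by its brightest probe, and 48 of the 57 members passed the filter on dim probes, which asked for a signal well over background on 5 or more arrays.

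The arrays came from single testes of 10 male C57BL/6N mice aged 6 weeks, 5 in each of the groups C and R. Dams of the R animals ate 50% of the mean intake of control dams from 6.5 days after mating, and dams of the C animals ate freely. R sons were fostered by unrelated control dams while C sons stayed with their mothers, so that prenatal diet and fostering cannot be told apart. Both groups ate regular chow freely after weaning, and the labels name no transgene or drug. The labels do not give litters, and p-values treat the animals as independent. The comparison asks which Rab transcripts differ in the testis of young adult offspring after maternal calorie restriction.

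On every array between 56.58% and 67.43% of spots were well above background, and no probe was saturated. Values below are log2 signals relative to the array's 75th percentile, so that 0 is the level of a fairly bright probe. A difference of 1 is 2-fold. The 10 arrays lay on 2 slides, with C replicates 1 and 2 and R replicates 1 to 4 on slide 1, and C replicates 3 to 5 and R replicate 5 on slide 2. In the authors' deposited table, R replicate 1 stands on the control side and C replicate 5 on the test side, against the deposited labels. With the table's grouping limma called 0 Rab genes and 0 genes of any kind, 4 Rab genes had an unadjusted p under 0.05, and their smallest adjusted p was 0.462. Without those 2 arrays 1 Rab gene was called higher and 10 lower, against 5.71% higher and 10.1% lower of all genes.

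Markers of the labelled tissue were present: germ cell markers of all 4 stages and the 8 Sertoli cell markers were well above background on all arrays. Of 5 epididymal genes, Lcn5 and Crisp1 were not well above background on any array, Cst11 was on 4 arrays, and Rnase10 and Defb15 were on all 10. The mean of the 5 ran from -4.63 to -3.98 in C and from -4.54 to -3.97 in R, and 0 of the 2 tested were called. For comparison with the marker counts below, 20.5% of all genes tested were called lower in R and 15% higher. The mean log2 signal of the Sertoli cell markers ran from 1.70 to 2.54 in C and from 1.46 to 1.68 in R. Of these markers, 7 of 8 (87.5%) were lower in R. Spermatogonial markers ran from 0.16 to 0.70 in C and from -0.21 to 0.03 in R (4 of 6 lower), and Leydig cell markers from 0.53 to 1.31 and from 0.26 to 0.80 (3 of 6 lower). Macrophage markers ran from -1.32 to -0.73 in C and from -1.83 to -1.22 in R (3 of 6 lower), and red blood cell markers from -0.27 to 0.78 and from -1.80 to -0.12 (3 of 4 lower). Endothelial markers ran from -3.17 to -2.64 in C and from -2.48 to -2.32 in R, with 3 of 6 higher. Peritubular myoid cell markers ran from -0.34 to 0.19 in C and from -0.25 to 0.49 in R. Only 1 of 5 was higher (20%, against 15% of all genes). Adipocyte markers ran from -3.27 to -0.35 in C, highest in C replicate 2, and from -1.61 to 0.16 in R, with 0 of 7 called and a median change of 0.68. Spermatocyte markers ran from 4.17 to 4.34 in C and from 4.04 to 4.10 in R, without overlap. Called lower were 2 of 6 (33.3%, against 20.5% of all genes). The other 4 changed upwards without a call, and the median change of the 6 was 0.03. Mean levels of the markers of round spermatids (3.76 to 4.09 in C, 3.82 to 4.03 in R) and of elongating spermatids (6.89 to 7.17 in C, 6.91 to 7.11 in R) overlapped between the groups. Of the round spermatid markers 1 of 6 was called higher, and of the elongating spermatid markers 1 of 6 was called lower. In RNA of a whole testis, fewer cells of a type and less RNA per cell cannot be told apart. The part of these markers in the Rab results was not tested.

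Rab transcripts were on the whole lower in R testes. Of the 48 Rab genes tested, 18 were lower and 3 were higher at a limma adjusted p under 0.05 over all probes tested, and 27 passed in neither direction. Among all 16735 genes tested, 35.6% were called, with 20.5% lower and 15% higher, against 37.5% lower and 6.25% higher of the Rab genes. The median change of the Rab genes was -0.27, in a range of -0.88 to 0.41, and the median of all genes was -0.03. In 14 Rab genes every R array lay below every C array, which held for 16.3% of all genes, and in 3 every R array lay above every C array, which held for 12.7% of all genes. The fall was 1.84-fold at most, and 5 genes (Rab18, Rab13, Rab31, Rab9 and Rab6b) also passed the study's own limit of a 1.5-fold difference. That limit was passed downwards by 5.61% of all genes. It was passed upwards by 0 Rab genes and by 4.24% of all genes.

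**Figure D1:**
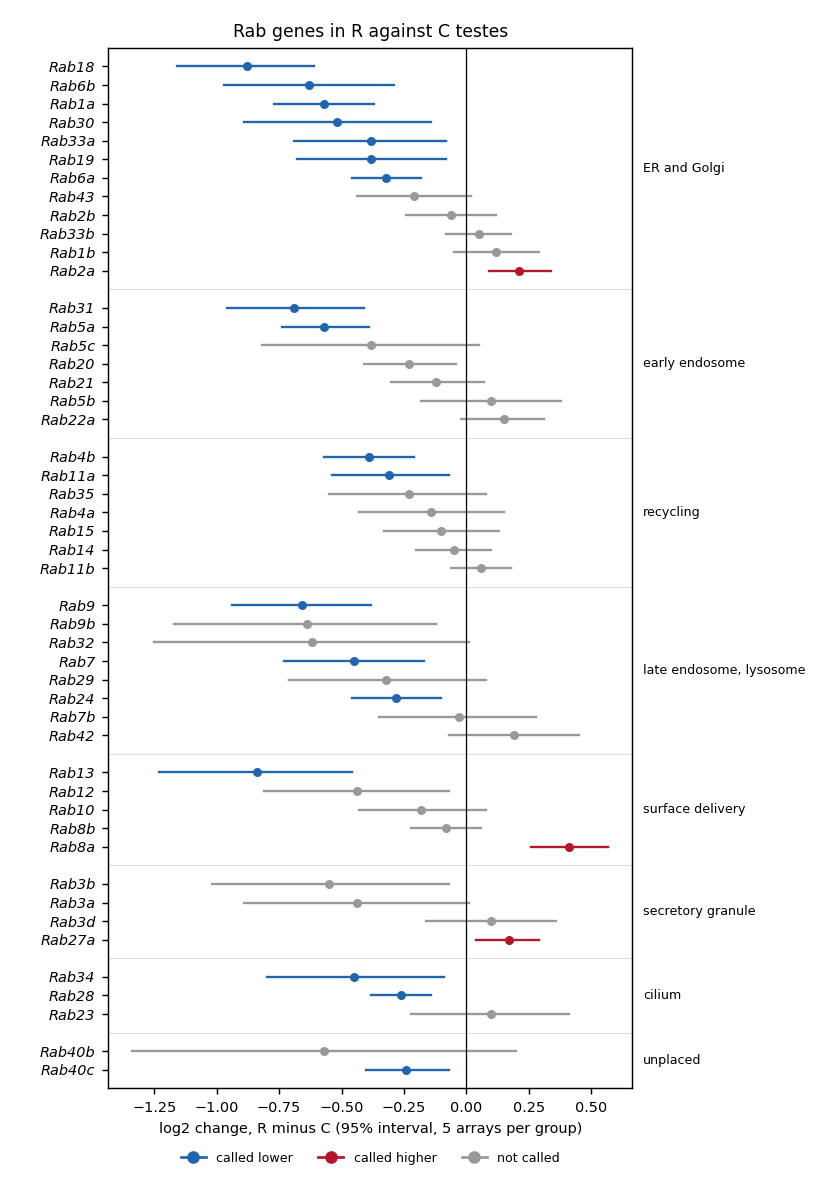
Log2 change of each of the 48 tested Rab genes in R minus C testes, grouped by the membrane the protein serves; points are limma estimates, lines 95% intervals, and 5 arrays stand behind each group. Most points lie left of 0, down to -0.88 for Rab18, and Rab8a, Rab2a and Rab27a are the 3 called higher.

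The average over the 48 Rab genes on each array was -0.19 to 0.19 in C and -0.35 to -0.22 in R, while the average over all genes stayed between -0.05 and 0 on every array. C replicates 1 and 2, both on slide 1, had the highest Rab averages, 0.04 and 0.19. With the slide as a block, 31 Rab genes were lower and 5 higher, against 28.7% lower and 22.8% higher of all genes, and all 21 calls were kept. The 15 genes that passed only with the block were Rab22a (0.21) and Rab42 (0.32) upwards and, downwards, Rab43 (-0.31), Rab4a (-0.29), Rab35 (-0.40), Rab5c (-0.55), Rab10 (-0.30), Rab12 (-0.61), Rab3b (-0.76), Rab3a (-0.66), Rab29 (-0.51), Rab20 (-0.29), Rab9b (-0.87), Rab40b (-0.92) and Rab32 (-0.82). Of these, Rab32 and Rab40b were each well above background on 4 C arrays and 2 R arrays. Within slide 1 alone 26 were lower and 1 higher, against 22.6% lower and 17% higher of all genes, and 15 of the 21 calls were kept. Slide 2 holds 1 R array against 3 C arrays, and limma there assumes that the lone R array varies like the C arrays. It gave no call among Rab or other genes, with 13 Rab genes at an unadjusted p under 0.05.

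Rabs of the endoplasmic reticulum and Golgi apparatus formed the largest role tested. Of 12 genes, 7 were lower (Rab18, Rab6b, Rab1a, Rab30, Rab33a, Rab19 and Rab6a) and 1, Rab2a, was higher, with a median of -0.35. The share lower was 58.3%, against 20.5% of all genes. Rab18, which acts on the endoplasmic reticulum and on lipid droplets, showed the largest fall of the family. Its log2 signal was 0.93, 1.23, 0.55, 0.56 and 0.80 in C replicates 1 to 5 and -0.09, -0.01, -0.09, -0.16 and 0.01 in R. The R testes sat close together and all below the lowest C testis. Rab18 fell by 0.88 ± 0.12 (SE, limma adjusted p = 0.00174), which is 1.84-fold with a 95% interval of 1.52 to 2.23.

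Rab1a, which is needed for transport from the endoplasmic reticulum to the Golgi, gave 2.37, 2.64, 2.20, 2.23 and 2.27 in C and 1.78, 1.84, 1.74, 1.66 and 1.83 in R. No R value reached the C range. Rab1a was 1.49-fold lower (log2 change -0.57 ± 0.09, SE, limma adjusted p = 0.00257), and a second Rab1a probe was lower too (-0.41, adjusted p = 0.0132). Rab6a, which works at the Golgi and in its retrograde traffic, measured 2.64, 2.73, 2.59, 2.54 and 2.50 in C against 2.26, 2.31, 2.36, 2.23 and 2.24 in R. The R values were again all below the C values, though the step was smaller, at -0.32 ± 0.06 (SE, limma adjusted p = 0.00572).

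Rab6b, the Golgi paralog best known from neurons, was -0.47, 0.19, -0.15, -0.08 and 0.48 in C and -0.64, -0.49, -0.61, -0.68 and -0.75 in R. C replicate 1 nearly met the highest R array, and the C testes were widely spread. The change was -0.63 ± 0.15 (SE, limma adjusted p = 0.0121). Rab30 (-0.52), a Golgi Rab, and Rab19 and Rab33a (each -0.38) were also called lower. Rab33a was well above background on all 5 C arrays but on only 2 R arrays. These 3 calls were each lost when 1 of several arrays was left out, with adjusted p up to 0.077, 0.0954 and 0.0935.

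Rab2a, which acts in the traffic between the endoplasmic reticulum and the Golgi and on the route to lysosomes, went the other way. Its brightest probe gave 3.36, 3.33, 3.31, 3.28 and 3.24 in C and 3.46, 3.61, 3.46, 3.51 and 3.55 in R, so that each R testis was above each C testis. The rise was 0.21 ± 0.06 (SE, limma adjusted p = 0.0174). Another Rab2a probe gave -0.13 (adjusted p = 0.204), and with the array median as the reference the change was 0.01 (adjusted p = 0.964). The paralogs Rab1b (0.12, adjusted p = 0.214), Rab2b (-0.06) and Rab33b (0.05) and the Golgi protein Rab43 (-0.21) did not pass the test. Dimmer probes of Rab1b and Rab2b did, at -0.24 (adjusted p = 0.0272) and 0.58 (adjusted p = 0.00268).

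Among early endosome Rabs, 2 of 7 tested were lower (28.6%, against 20.5% of all genes). Rab5a, the master regulator of early endosome fusion, was 0.61, 0.73, 0.40, 0.47 and 0.65 in C and -0.02, -0.12, 0.04, 0.01 and 0.10 in R. The highest R testis stayed well below the lowest C testis. Rab5a had the smallest p of the family, with a change of -0.57 ± 0.08 (SE, limma adjusted p = 0.00165), or 1.48-fold. It has 1 probe on the array.

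Rab31, a Rab5 relative that works between the trans-Golgi and endosomes and in phagocytosis, measured 0.90, 1.19, 0.59, 0.51 and 0.61 in C and 0.03, -0.01, 0.05, 0.11 and 0.17 in R. The groups were again apart, with C replicates 1 and 2 on top. The change of -0.69 ± 0.12 (SE, limma adjusted p = 0.00389) came from the brightest probe, and another probe gave 0.03 (adjusted p = 0.796). The remaining 5 early endosome members did not pass: Rab5c at -0.38 (adjusted p = 0.138), Rab20, a phagosome Rab, at -0.23 (0.0522), Rab21 at -0.12, Rab5b at 0.10 and Rab22a at 0.15. A dimmer Rab5b probe was higher, at 0.47 (adjusted p = 0.00949). In Rab20 the R arrays, at -2.52 to -2.38, still lay below all C arrays, at -2.34 to -1.99.

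Recycling Rabs return receptors and membrane to the surface, and 2 of 7 tested were lower (28.6%, against 20.5% of all genes). Rab4b, of the fast recycling route, was 0.13, 0.23, 0.34, 0.11 and 0.21 in C and -0.21, -0.32, -0.08, -0.29 and -0.01 in R. All R values lay below the C values, and a second probe was lower as well (-0.33, adjusted p = 0.00358). The brightest probe changed by -0.39 ± 0.08 (SE, limma adjusted p = 0.00633). Rab11a, of the slow recycling endosome, gave 2.79, 3.11, 2.54, 2.55 and 2.70 in C and 2.43, 2.48, 2.42, 2.41 and 2.42 in R.

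The R testes had nearly one level of Rab11a and the C testes lay above it, C replicate 2 farthest. Its change was -0.31 ± 0.11 (SE, limma adjusted p = 0.0417), and dropping any of 7 single arrays ended the call, with an adjusted p of up to 0.0803. Rab35 (-0.23), Rab4a (-0.14), Rab15 (-0.10), Rab14 (-0.05) and Rab11b (0.06) did not pass, although a second probe each of Rab14 and Rab11b was called lower (-0.37 and -0.26).

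Late endosome and lysosome Rabs had 3 lower of 8 tested (37.5%, against 20.5% of all genes), with a median of -0.38. Rab9, an X-linked gene whose protein returns mannose 6-phosphate receptors from late endosomes to the Golgi, was 0.65, 1.02, 0.47, 0.27 and 0.41 in C and -0.06, -0.16, -0.11, -0.03 and -0.10 in R. The R testes were tightly grouped under all C testes. Rab9 changed by -0.66 ± 0.13 (SE, limma adjusted p = 0.00489), or 1.58-fold, and its second probe by -0.53 (adjusted p = 0.00249). The X-linked paralog Rab9b gave a similar estimate, -0.64 ± 0.24, which did not pass (adjusted p = 0.0538). Of all 653 X-linked genes tested, 39.5% were lower in R and 36 genes were higher.

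Rab7, which drives late endosome and phagosome maturation, measured 0.14, 0.52, -0.22, -0.12 and 0.10 in C and -0.33, -0.25, -0.42, -0.44 and -0.37 in R. The highest R testis lay just below the lowest C testis. The change was -0.45 ± 0.13 (SE, limma adjusted p = 0.0213), and a second probe showed -0.02 (adjusted p = 0.912). Rab24, linked to autophagy, was called lower at -0.28. Rab32 (-0.62, adjusted p = 0.104), Rab29 (-0.32), Rab7b (-0.03) and Rab42 (0.19) did not pass.

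Of 5 Rabs of polarised surface delivery, Rab13 was lower and Rab8a higher. That is 20% each way, against 20.5% lower and 15% higher of all genes. Rab13, which acts in the assembly and recycling of tight junctions, was -2.14, -2.22, -2.65, -2.78 and -2.88 in C and -3.24, -3.12, -3.46, -3.78 and -3.29 in R. No R array reached the C range. The change was -0.84 ± 0.17 (SE, limma adjusted p = 0.00629), or 1.79-fold with a 95% interval of 1.37 to 2.34, and the second probe also fell (-0.41, adjusted p = 0.0107).

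Rab8a, which delivers vesicles to the apical surface and the cilium, read 1.37, 1.29, 1.46, 1.43 and 1.19 in C and 1.74, 1.89, 1.68, 1.77 and 1.73 in R. Every R testis was above every C testis, and the rise of 0.41 ± 0.07 (SE, limma adjusted p = 0.00331) was the largest in the family, at 1.33-fold. It rests on the brightest probe: a second gave -0.03 (adjusted p = 0.685), and with the array median as reference the change was 0.21 (adjusted p = 0.0884). Rab8b, which takes part in the dynamics of junctions between Sertoli and germ cells, gave 0.12, 0.21, 0.29, 0.34 and 0.34 in C and 0.16, 0.20, 0.23, 0.13 and 0.17 in R. The groups overlapped and the change of -0.08 ± 0.06 did not pass (limma adjusted p = 0.300), while a dimmer Rab8b probe was higher (0.54, adjusted p = 0.00238).

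Rab10, which delivers membrane and glucose transporters to the surface, overlapped between the groups. It was 0.79, 0.98, 0.43, 0.38 and 0.57 in C and 0.50, 0.55, 0.51, 0.36 and 0.37 in R (-0.18 ± 0.12, SE, limma adjusted p = 0.241). C replicates 1 and 2 stood above all other testes, and with the slide as a block the change of -0.30 passed (adjusted p = 0.0217). Rab12 (-0.44, adjusted p = 0.0588) did not pass.

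Secretory Rabs include those that prime acrosome release. Of 4 tested, none was called lower and 1 was called higher (25%, against 15% of all genes). Rab3a, the classical Rab of regulated exocytosis and of the sperm acrosome, was -0.08, 0.27, -0.76, -0.76 and -0.59 in C and -0.81, -0.50, -0.97, -0.92 and -0.94 in R. C replicates 1 and 2 were high and the other C testes lay within or near the R range. The change of -0.44 ± 0.20 did not pass (limma adjusted p = 0.103). With the slide as a block it was -0.66, and within slide 1 it was -0.89, both past the threshold, and within slide 2 it was -0.23.

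Rab27a, which acts with Rab3a in exocytosis and docks secretory lysosomes, gave -2.01, -2.07, -1.95, -2.01 and -2.08 in C and -1.83, -1.93, -1.87, -1.81 and -1.86 in R. All R values were slightly above all C values, by 0.17 ± 0.06 (SE, limma adjusted p = 0.0384). Dropping any of 7 single arrays ended the call, and the change was -0.04 with the array median as reference. Rab3b (-0.55, adjusted p = 0.0640) and Rab3d (0.10) did not pass. Rab27b was well above background on 1 of 10 arrays, C replicate 5, at -3.37, against -7.92 to -5.52 on the others, and was not tested.

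Rabs tied to the cilium or flagellum gave 2 lower of 3, against 20.5% of all genes. Rab28, found at the base of cilia, was 4.20, 4.20, 4.20, 4.18 and 4.23 in C and 3.93, 4.03, 3.98, 3.87 and 3.89 in R. Its C testes hardly differed and every R testis was lower. The change was -0.26 ± 0.06 (SE, limma adjusted p = 0.00682), a fall of 1.20-fold, and 2 other probes gave -0.14 and -0.23 without passing.

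Rab23, a brake on hedgehog signalling, measured -1.34, -1.75, -1.02, -1.11 and -1.17 in C and -1.24, -1.44, -0.99, -1.17 and -1.07 in R. The groups overlapped throughout (0.10 ± 0.14, SE, limma adjusted p = 0.601), and a second probe was called higher (0.31, adjusted p = 0.0487). Rab34, which acts at the onset of cilium formation, was called lower at -0.45 with an adjusted p of 0.0499 and lost that call on dropping any of 7 single arrays (up to 0.103). Of the atypical Rab40 proteins, which bind a ubiquitin ligase, Rab40c was lower at -0.24 and Rab40b, at -0.57, did not pass (adjusted p = 0.205). The call of Rab40c ended on dropping any of 6 single arrays (up to 0.0704). The other 14 of the 21 called Rab genes were called whichever single array was left out.

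**Figure D2:**
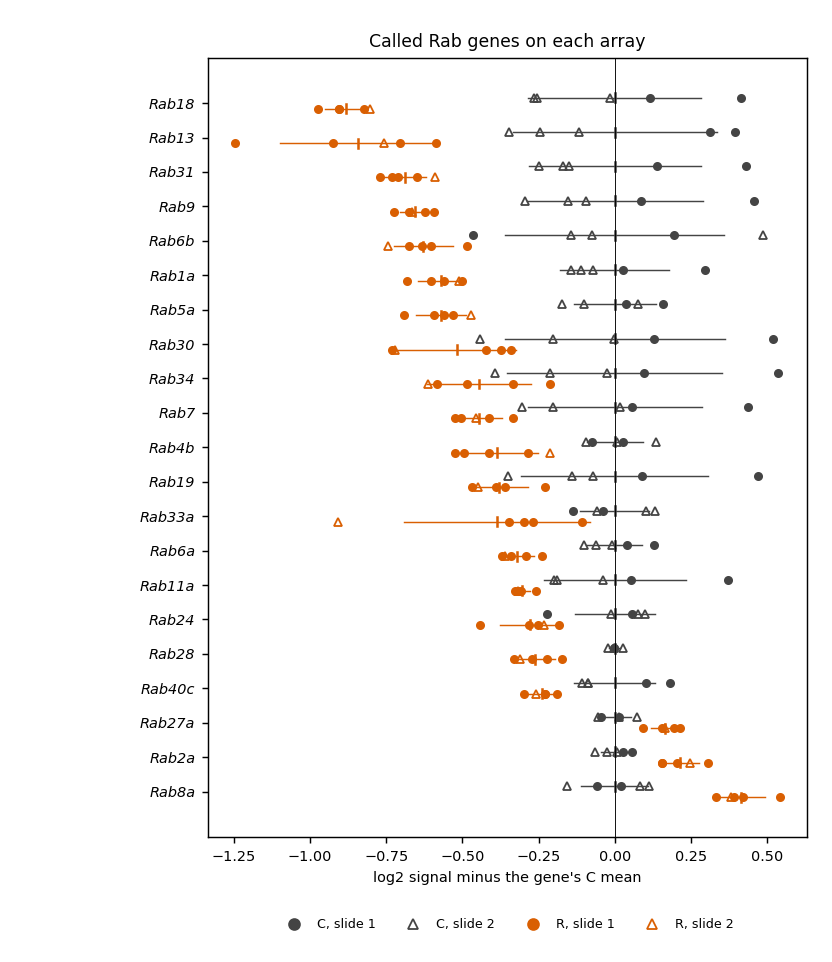
Log2 signal of the 21 called Rab genes on each of the 10 arrays, minus the gene's mean in C; circles are slide 1, triangles slide 2, short bars group means and lines 1 SD (n = 5 per group). For Rab18, Rab5a and Rab1a the R arrays form a tight cluster below all C arrays, and C replicates 1 and 2 are often the highest points.

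The remaining 9 members were too dim to test. Rab25, Rab37, Rab39 and Rab39b were not well above background on any array, Rab27b and Rab38 were on 1, Rab17 and Rab26 on 3, and Rab3c on 4. Several of these are known from epithelia (Rab17, Rab25), pigment cells (Rab38) or nerve cells (Rab3c, Rab39b). C replicate 5, singled out here after its values were seen, gave the highest value of 5 of the 9, with Rab17 at -1.31 there and at most -4.83 elsewhere.

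The choice of probe mattered for part of the family. Another tested probe existed for 11 of the 21 called members, and it was called the same way for 4 (Rab13, Rab1a, Rab4b and Rab9) and the opposite way for 0. For 3 members (Rab2a, Rab8a and Rab31) the other probe had the opposite sign without passing. Of 14 members that were not called and had another tested probe, that probe was called lower for 4 (Rab11b, Rab14, Rab1b and Rab29) and higher for 4 (Rab23, Rab2b, Rab5b and Rab8b).

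The reference mattered as well. Relative to each array's median signal, 29 Rab genes were lower and 0 higher, with 35 at an unadjusted p under 0.05 by limma, against 37.0% lower and 5.45% higher of all genes. Of the 21 calls, 18 were kept. The median of all genes moved to -0.23 under that reference and that of the Rab genes to -0.48.

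**Figure D3:**
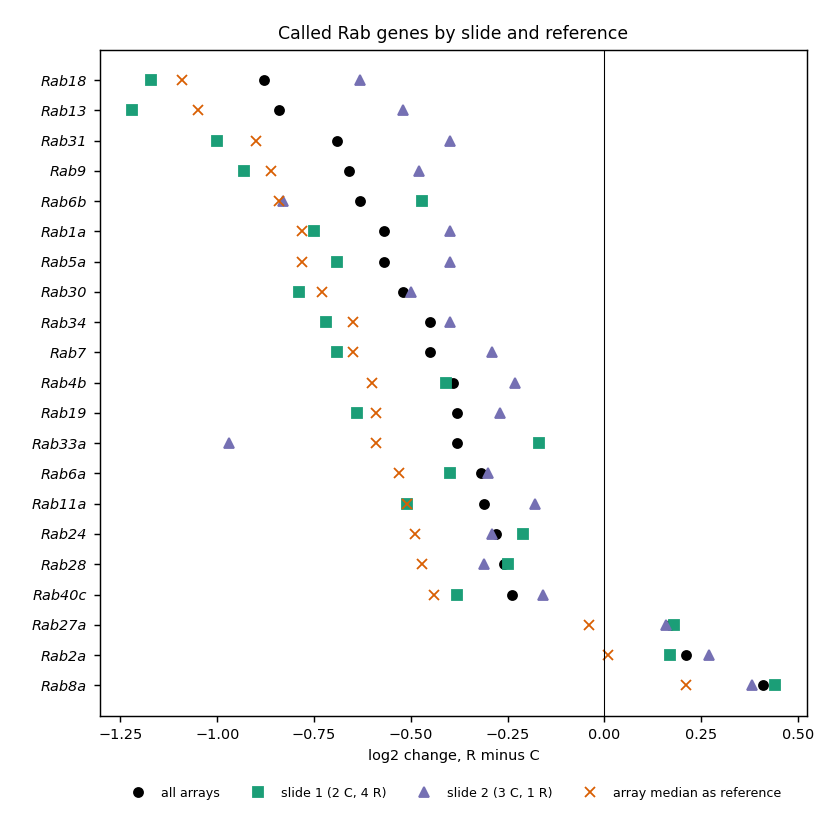
Log2 change in R minus C of the 21 called Rab genes over all 10 arrays, within each slide, and with the array median in place of the 75th percentile as reference. The slides hold the same arrays that chose the 21 genes, and slide 2 has 1 R array; Rab27a crosses to -0.04 with the array median.

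Rab paralogs share a number and most of their sequence, and differences between paralogs on the same array do not depend on the array's reference. For 16 such pairs the log2 difference between the genes was taken on each array and compared between groups with an exact 2-sided permutation test, whose smallest possible p is 0.00794. In 8 pairs the difference shifted at an adjusted p under 0.05 over the 16 pairs, some of which share a gene. Of all genes tested 35.6% were called, and how often pairs of other genes shift in this way was not tested. Rab1a fell relative to Rab1b by 0.69, and Rab5a relative to Rab5b by 0.67. In both pairs all 5 R arrays lay below all 5 C arrays (exact p = 0.00794, adjusted p = 0.0212).

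Rab11a shifted against Rab11b by -0.37, Rab33a against Rab33b by -0.43, Rab5b against Rab5c by 0.48 and Rab8a against Rab8b by 0.50, each with the same exact p. Rab7 against Rab7b (-0.41, exact p = 0.0159, adjusted p = 0.0363) and Rab2a against Rab2b (0.27, exact p = 0.0238, adjusted p = 0.0476) overlapped between the groups. Rab33a was near background in R, as given above, and with normexp background correction its pair gave -0.23 and did not pass (exact p = 0.0317, adjusted p = 0.0564). With labels exchanged only within a slide 7 pairs passed. Rab7 against Rab7b (adjusted p = 0.0593) and Rab2a against Rab2b (adjusted p = 0.0800) were then lost. Rab3a against Rab3d passed (exact p = 0.0167, adjusted p = 0.0381), with -1.18 within slide 1 and -0.20 within slide 2. Without that restriction Rab3a against Rab3d gave -0.54 (exact p = 0.175). Averaged over all probes of a gene, 5 pairs remained: Rab1a and Rab1b (-0.43), Rab5a and Rab5b (-0.86), Rab5b and Rab5c (0.67), Rab11a and Rab11b (-0.23), and Rab33a and Rab33b (-0.43). Rab8a against Rab8b then gave -0.04 (exact p = 0.341), and Rab2a against Rab2b gave -0.22 (exact p = 0.0635). With the table's grouping, and without the 2 arrays it groups otherwise, 0 pairs passed, against 0 and 6 at an unadjusted exact p under 0.05.

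The other 8 pairs did not pass. Rab9 against Rab9b gave -0.01 (exact p = 0.944), but -0.21 with normexp background correction, which passed (exact p = 0.0159, adjusted p = 0.0423). Rab5a shifted against Rab5c by -0.19 (exact p = 0.365). Rab6a against Rab6b gave 0.31 (exact p = 0.103), and Rab3b against Rab3d gave -0.64 (exact p = 0.0952), the latter between -1.34 on slide 1 and -0.20 on slide 2. Within the slides, Rab1a against Rab1b gave -0.81 and -0.42 and Rab5a against Rab5b gave -0.54 and -0.59.

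**Figure D4:**
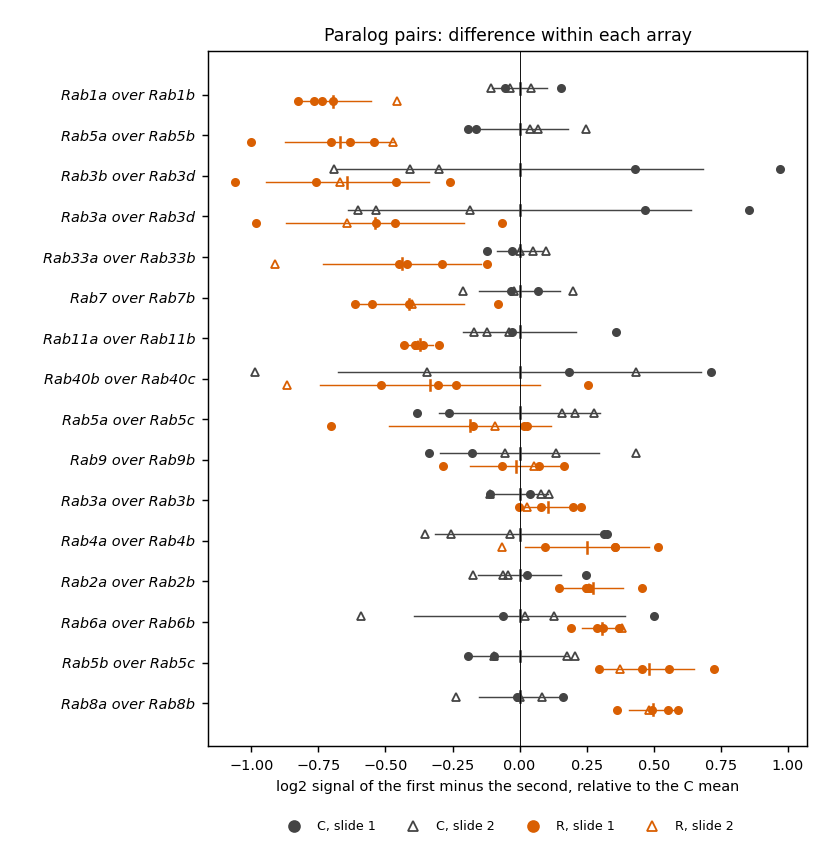
Difference in log2 signal between 2 Rab paralogs on each array, relative to its mean in C, for 16 pairs; circles are slide 1, triangles slide 2, short bars group means and lines 1 SD (n = 5 per group). R arrays lie apart from C arrays for Rab1a over Rab1b and Rab5a over Rab5b at the top and for Rab8a over Rab8b at the bottom.

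The start regions of these 2 pairs are shown because their members parted on the same arrays. Each is the 150 bases before the RefSeq transcript start in GRCm38.p6, on the gene's strand, with matches to 5 words in capitals. The words, searched on both strands, were the GC box GGGCGG, the CCAAT box CCAAT, the E-box CACGTG, the CRE TGACGTCA and the TATA box TATAAA.
Rab1a, chr11:20201262-20201411, plus strand: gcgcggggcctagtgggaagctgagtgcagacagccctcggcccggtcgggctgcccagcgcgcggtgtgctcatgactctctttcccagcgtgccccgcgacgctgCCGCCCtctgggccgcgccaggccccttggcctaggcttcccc
Rab1b, chr19:5106997-5107146, minus strand: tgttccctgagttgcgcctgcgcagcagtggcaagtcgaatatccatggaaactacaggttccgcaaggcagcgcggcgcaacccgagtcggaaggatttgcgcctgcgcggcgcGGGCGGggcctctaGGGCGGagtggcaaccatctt
Rab5a, chr17:53479084-53479233, plus strand: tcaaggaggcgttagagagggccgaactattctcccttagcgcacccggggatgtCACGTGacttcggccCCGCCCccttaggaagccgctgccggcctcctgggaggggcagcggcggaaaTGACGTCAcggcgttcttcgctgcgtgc
Rab5b, chr10:128696269-128696418, minus strand: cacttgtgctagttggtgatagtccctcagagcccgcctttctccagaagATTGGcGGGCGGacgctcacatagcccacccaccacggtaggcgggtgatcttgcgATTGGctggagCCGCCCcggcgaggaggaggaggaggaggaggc

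All 4 stretches hold a GC box. The Rab5a stretch alone holds an E-box and a CRE, and the Rab5b stretch alone holds CCAAT boxes. Over windows from 250 bases before to 50 after the start, which the RefSeq table gave for 48 members, the GC box occurred in 34 (70.8%) against 35.9% of all 27025 promoters. Among members with a window, it occurred in 9 of 16 called lower, 1 of 2 called higher, 22 of 25 tested but not called, and 2 of 5 not tested. The difference between these groups was not tested. CCAAT boxes occurred in 47.9% of members and 37.9% of all promoters, E-boxes in 10.4% and 7.24%, CREs in 4.17% and 1.88%, and TATA boxes in 8.33% and 14.2%. The members' windows had a median GC content of 61.7% against 52.7% of all promoters. A match is a run of letters, not evidence of binding.

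The proteins that handle Rabs were described with 5 lists of 127 genes with a probe, of which 118 were tested. Of these 20 were lower and 21 higher, with a median change of 0.02. The shares, 16.9% lower and 17.8% higher, were close to the 20.5% and 15% of all genes. The machinery that prenylates Rabs and shuttles them through the cytosol was lower in 3 of 7 genes (42.9%, against 20.5% of all genes). It was higher in none, with a median of -0.19. Chm, the Rab escort protein that presents new Rabs for prenylation and is X-linked, was -4.00, -3.62, -3.92, -3.21 and -3.22 in C and -5.16, -4.77, -4.86, -4.53 and -4.96 in R. Its R testes lay far below its C testes, and its probe was well above background on all 5 C arrays but on only 2 R arrays. The log2 change was -1.26 ± 0.18 (SE, limma adjusted p = 0.00178), and its size rests in part on R values near background.

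Rabggtb, the catalytic chain of the enzyme that prenylates Rabs, gave -1.22, -1.13, -1.34, -1.30 and -1.10 in C and -1.86, -1.83, -1.71, -1.88 and -1.63 in R. The groups stood clearly apart (-0.56 ± 0.08, SE, limma adjusted p = 0.00152), whereas Rabggta, the partner chain of the same enzyme, was at 0.00 (adjusted p = 0.999). Chml, the second escort protein, was lower at -0.38 (adjusted p = 0.00897), and its dimmer probe gave -0.04. Gdi2, a GDI protein, was at 0.14 (adjusted p = 0.172) and Rabac1, which frees Rabs from GDI, at -0.19 (adjusted p = 0.0563), and neither passed.

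**Figure D5:**
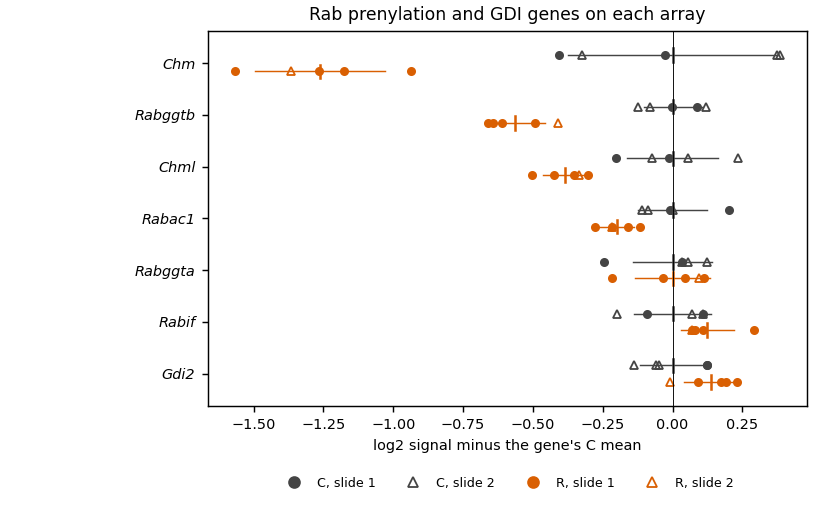
Log2 signal of 7 genes of Rab prenylation and GDI recycling on each array, minus the gene's mean in C; circles are slide 1, triangles slide 2, short bars group means and lines 1 SD (n = 5 per group). Chm, Rabggtb, Chml and, by less, Rabac1 lie lower on every R array than on any C array, and Rabggta, Rabif and Gdi2 overlap.

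Exchange factors were called both ways: 6 of 31 were higher and 4 lower (19.4% and 12.9%, against 15% and 20.5% of all genes). Their changes leaned upwards, with 20 positive and 11 negative and a median of 0.14, against -0.03 for all genes. In 9 every R array lay above every C array (12.7% of all genes), and in 3 below (16.3% of all genes). The lean was not tested. Those with the smallest p among the higher were Ankrd27 (0.36), Madd, which activates Rab3 (0.31), and Sbf1 (0.33). Among the lower they were Dennd2c (-0.74), Dennd4c (-0.44, with other probes at 1.05 and -0.10) and Rin3, a Rab5 exchange factor (-0.43). GTPase-activating proteins were split 6 and 6 of 38, or 15.8% each way, against 20.5% lower and 15% higher of all genes. Tbc1d15, which acts on Rab7, was lower (-0.62, limma adjusted p = 0.000977), along with Tbc1d8 (-0.39) and Tbc1d23 (-0.29). Rabgap1 (1.29, with another probe at 0.27), Tbc1d20, which acts on Rab1 (0.51), and Tbc1d22b (0.27) were higher.

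Effectors were split 7 and 7 of 36, or 19.4% each way, against 20.5% lower and 15% higher of all genes. Uso1, the tether that Rab1 recruits to vesicles leaving the endoplasmic reticulum, was lower (-0.67 ± 0.10, SE, limma adjusted p = 0.00175), as were Appl2, a Rab5 effector of signalling endosomes (-0.47), and Rabepk, a Rab9 effector (-0.32). Eea1, the Rab5 tether of early endosomes, was higher (0.47 ± 0.07, SE, limma adjusted p = 0.00221), as were Rims2, a Rab3 effector of exocytosis (0.65), and Mical1 (1.25, with another probe at -0.06). Of 6 Rab-like GTPases, Rabl6 (0.56) and Rasef were called higher (33.3%, against 15% of all genes) and none lower. The Rasef probe was well above background on 2 C arrays and 3 R arrays, so the size of its change is not given. With the array median as the reference, 7 of the 118 were higher and 37 lower, against 5.45% higher and 37.0% lower of all genes.

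The authors' deposited table lists 5 probes of Rab members. Its log2 ratios, formed with its own grouping of the arrays, were -0.68 and -0.34 for the Rab13 probes, -0.19 for Rab6a, -0.19 for Rab43 and -0.17 for Rab20. The authors' deposited table gives p-values of 0.00405 to 0.0454 and a q-value of 0.515 for each.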

How the data were processed

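The authors deposited 1 scanner file per array, made with Agilent Feature Extraction 12.0.3.1 according to the file headers, and its measurements are spot intensity values. Background had been subtracted from the processed intensity within each array and no scaling between arrays applied, per the file headers, which name mm9 for the probe annotation. A table of the authors' own comparison gave, for a subset of probes, scaled intensity, a log2 ratio, a p-value and a q-value. Of its columns of per-sample values, 10 were not used here.

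Control and outlier spots were dropped. The processed intensity was put on a log2 scale and the array's 75th percentile over 59305 non-control spots was subtracted, and spots of a probe were averaged. Accessions were matched to a RefSeq gene table of GRCm38.p6, which named 33767 of 56605 probes. Signals well over background on 5 or more arrays qualified 33851 probes for testing. The test was the 2-sided moderated one of limma 3.58.1 (R 4.3.3; lmFit, then eBayes), adjusted by Benjamini-Hochberg over all tested probes, with calls at an adjusted p under 0.05. The number of arrays limits the precision. Symbols of the array design were not used.

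Members, roles, partner lists and markers were chosen with earlier results of these data known. Per-array values are given for the 8 called members with the smallest p in each direction and 13 Rabs fixed by their known role. Of the 13, Rab27b was not tested and is given by its highest value and the range of the others. Rab6b, which met neither rule, is also given in full. Other called members are named with their change, and each partner list by up to 3 genes of smallest p in each direction. Genes that did not pass are named to account for every member. The paralog comparison was chosen after seeing the data. The fit was tested on simulated data. Alternatives covered background correction (normexp, offset 50, on median spot intensity), scaling, filter, probe choice, slide, weights, grouping and each array left out. No amino acid sequence is given. A gene of the prenylation and GDI list is not reported here and was left out of the list's counts.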

Additional observations from a re-analysis of the deposited data

Results flagged for a closer look

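Among the 25 Rab genes with full values or a call, 50 groups of 5 arrays were examined for an array standing apart from its group, and 1 was found. Rab11a in R replicate 2 was at 2.48, while the other R arrays were at 2.41 to 2.43. Its gap to the nearest array was 0.735 of the group's range, above Dixon's critical value of 0.710. Chance alone marks about 5% of such groups, and the gap is small beside the difference of Rab11a between the groups.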

How the results depend on the processing

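With the array median as reference the Rab calls were 0 higher and 29 lower, those of the partner lists 7 and 37, and those of all genes 912 and 6196. Without the filter they were 1 and 10 of 57 Rab genes, 12 partners higher and 13 lower, and 1530 and 2225 of all genes. With the slide as a block they were 5 and 31 Rab genes, 35 partners higher and 3812 genes higher. Slide 1 alone left 1 Rab gene higher. Slide 2 alone and the table's grouping gave 0 calls by limma in either direction for Rab genes, partners and all genes, with 13 and 4 Rab genes at an unadjusted p under 0.05. Array weights gave 5 Rab genes higher and 15 lower, against 17.1% higher and 23.1% lower of all genes. The equal-variance test on linear intensity gave 5 higher and 13 lower, against 18.9% higher and 16.7% lower of all genes. The study's criterion gave 0 and 5 Rab genes, 4 and 4 partners, and 709 and 938 of all genes. Without the 2 arrays grouped otherwise in the table there were 1 and 10 Rab genes, 9 and 11 partners, and 956 and 1692 genes. Leaving out single arrays gave 2 to 3 Rab genes higher and 12 to 22 lower, and 13 to 22 partners lower (13 without R replicate 4). Of all genes, 1661 to 2717 were then higher and 2428 to 3689 lower. The fewest lower Rab genes, 12, came without C replicate 1, R replicate 1, R replicate 3 or R replicate 4.

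Among the 25 Rab genes with full values or a call, signs turned for Rab23 (-0.11 with the array median, -0.06 with array weights, -0.02 without C replicate 2, in a range of -0.02 to 0.16 with single arrays left out), Rab27a (-0.04 with the array median) and Rab8b (0.23 over all its probes, adjusted p = 0.0125 by limma, and 0.01 on slide 1 alone). Among the other Rab genes, none of which was called, the array median turned Rab11b (-0.14), Rab1b (-0.08), Rab22a (-0.06), Rab33b (-0.16), Rab3d (-0.11), Rab42 (-0.02) and Rab5b (-0.11). The mean over all probes turned Rab11b (-0.08), Rab15 (0.05), Rab1b (-0.06), Rab3d (-0.09), Rab7b (0.02) and Rab2b, which then passed at 0.26 (limma adjusted p = 0.0325). Under the other settings single turns, none of them called, fell on Rab2b, Rab3d, Rab5b, Rab7b, Rab14 and Rab33b. The causes were not tested. Paralog pairs past the threshold were 5 over all probes of a gene, 0 with the table's grouping (0 at an unadjusted exact p under 0.05) and 0 without the 2 arrays (6 at an unadjusted exact p under 0.05), where the smallest possible exact p is 0.0286, and 6 to 8 with single arrays left out. The labels give no pairing of animals. No paired analysis was possible because the replicate numbers only follow the order of deposit.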
